A study of Mus musculus with 3 samples.

Results

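The AP-1 and Egr immediate early transcription factors were read on 3 microarrays of long-term hematopoietic stem cells (LT-HSCs) from mouse bone marrow. The set held 10 of the 37325 genes on the array, namely Fos, Fosb, Fosl2, Jun, Junb, Jund, Egr1, Egr2, Egr3 and Atf3, and 17 of its 56605 probes. Every probe whose gene name on the array was one of these symbols was taken, and RefSeq accessions added 0 further probes. The genes were chosen with their values on these same arrays known, so every difference given for them is a description and carries no test.

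One array was hybridized for each of the WT, AtmsKO and Atmp38dKO groups, so no value has a replicate and a comparison sets single arrays, not genotypes, against each other. All mice were C57BL/6J and received tamoxifen, which switches on CreERT2, a Cre recombinase that works only once the drug is bound. AtmsKO mice carried CAG-CreERT2 and Atm flox/flox alleles, and Atmp38dKO mice carried CAG-CreERT2 with both Atm flox/flox and p38α flox/flox alleles. Atm is a kinase that responds to DNA double-strand breaks, and p38α, encoded by Mapk14, is a stress-activated MAP kinase that has AP-1 proteins and Atf factors among its downstream targets. According to the methods, the WT controls were Cre-negative mice with flox/flox alleles of Atm, or of Atm and p38α. These controls thus lacked the transgene as well as the deletions. The CAG promoter is active in most cell types, so deletion was not limited to blood cells. The sample labels give an age of 11 weeks, whereas the design text gives tamoxifen at about 5 weeks and analysis 4 weeks afterwards. Sorted cells are described as CD150+, CD48-, Flt3-, CD34- cells of the LSK fraction, which is lineage-negative, Sca-1+ and c-Kit+. The labels and the design text do not describe this sort alike, and the methods add CD41-. How many mice gave cells to an array is not given in the sources used here, and mice of both sexes were used.

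Immediate early genes are transcribed within minutes of a stimulus and need no new protein for it. Fos and Jun proteins pair through leucine zippers as the factor AP-1, which binds the TPA response element (TRE), and Atf3 is a leucine zipper factor of stress responses that can pair with Jun proteins. Egr proteins are zinc finger factors that bind GC-rich sites. Growth factors and stresses reach these genes through MAP kinases, with serum response factor (SRF) and its ternary complex partners on CArG boxes, and in blood stem cells the family is known both for roles in quiescence and for rapid induction when tissue is handled. In bulk RNA, fewer cells that express a gene and less RNA per cell cannot be told apart.

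The windows upstream of the start sites are shown first because members of the set were lower together on 1 array. Of the 10 genes, 8 had an entry in the RefSeq promoter table (GRCm38.p6), Egr1 and Egr3 being the exceptions. The 250 bases upstream are printed for Fos, Jun and Atf3, which have an entry and were lower by 2-fold or more on the array labelled Atmp38dKO, with WT as the baseline. Capitals mark the motifs found, TATAAA in Fos and TGACATCA, a TRE variant, in Jun, and none of the motifs searched was in the Atf3 window.
Fos upstream, chr12:85473640-85473889, plus strand: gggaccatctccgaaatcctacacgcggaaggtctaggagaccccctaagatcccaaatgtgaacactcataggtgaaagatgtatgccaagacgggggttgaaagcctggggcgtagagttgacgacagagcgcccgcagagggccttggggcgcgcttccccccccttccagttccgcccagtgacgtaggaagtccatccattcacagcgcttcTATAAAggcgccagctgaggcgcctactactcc
Jun upstream, chr4:95052223-95052472, minus strand: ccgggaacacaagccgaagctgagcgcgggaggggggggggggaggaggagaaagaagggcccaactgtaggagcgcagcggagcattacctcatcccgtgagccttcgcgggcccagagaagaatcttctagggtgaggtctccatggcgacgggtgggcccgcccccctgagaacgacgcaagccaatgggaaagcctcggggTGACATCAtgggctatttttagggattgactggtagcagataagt
Atf3 upstream, chr1:191183334-191183583, minus strand: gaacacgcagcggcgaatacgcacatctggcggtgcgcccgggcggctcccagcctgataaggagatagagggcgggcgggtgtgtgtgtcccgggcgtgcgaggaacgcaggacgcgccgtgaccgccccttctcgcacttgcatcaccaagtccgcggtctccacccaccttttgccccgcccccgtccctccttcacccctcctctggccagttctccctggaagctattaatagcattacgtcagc

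Motifs were searched on both strands in the 300 bases that run from 250 upstream to 50 after each start. The TRE (TGACTCA or TGAGTCA) was in 0 of the 8 genes and in 5.2% of the 32851 promoters of the table, and the cyclic AMP response element TGACGTCA was in 0 of 8 and in 1.79%. The Jun variant TGACATCA was in 3.62% of promoters. An Egr site (GCGTGGGCG or GCGGGGGCG, found in 3.47% of promoters) was in Fosb and Fosl2, and the CArG box (1.63%) was in Egr2 at 2 places. The Ets core CCGGAA (14.9%), bound by the ternary complex partners of SRF, was also in Egr2, and TATAAA (13.6%) was in Fos and, just after the start, in Junb. Several starts are listed for Egr2, and the CArG boxes and the Ets cores were found at some of them only. Among the matches, a pair of Ets cores on opposite strands in Egr2 overlap, and no matches of different motifs do. Capitals below mark the Egr sites and both CArG boxes, shown because they are the sites of the set's own Egr factors and of SRF.
Fosb Egr site, chr7:19310076-19310105, minus strand: tgacgcaagcGCGGGGGCGggtcccggagg
Fosl2 Egr site, chr5:32136383-32136412, plus strand: ccggctgcgcGCGGGGGCGgaagggcgcgc
Egr2 CArG box, chr10:67537484-67537513, plus strand: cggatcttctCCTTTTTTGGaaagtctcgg
Egr2 CArG box, chr10:67537787-67537816, plus strand: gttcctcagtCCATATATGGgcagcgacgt
A match is a description of the letters and not evidence of binding.

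Signals are given in the scanner's processed units, and log2 levels, log2 differences and folds after each array was centred on its own 75th percentile, which stood at 102 (WT), 96.2 (AtmsKO) and 118 units (labelled Atmp38dKO). Where 3 values follow each other without a name, they are in that order. Probes well above background made up 73.3%, 68.9% and 77.7% of the total in that order, and 0 spots were saturated. All arrays sat on 1 slide read in 1 scan. Probes printed 10 times on each array had a median SD between their spots of 0.05 log2 units above 1000 units of signal, 0.06 to 0.08 from 100 to 1000 units, and 0.23 to 0.25 below 100 units. This spread covers error within an array only, not the spread between mice or RNA samples. One Atm probe read 87, 23.9 and 86.5 units and the other read 88.8, 16.3 and 49. One Mapk14 probe read 469, 558 and 616 units and the other 295, 260 and 345. Atm was thus lowest in AtmsKO by both probes, and Mapk14 was not lower on the array labelled Atmp38dKO than in WT by either. Whether a probe lay in a floxed exon is not given in the sources used here, and the array is therefore called by its label.

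All 13 LT-HSC markers, among them Kit, Procr and Mecom, were well above background on every array, although Hoxb5 (91.4, 107 and 34 units) and Fgd5 (198, 146 and 69.8 units) were lowest on the array labelled Atmp38dKO. Cd34 mRNA was detected at 1694, 1666 and 2185 units despite the CD34- gate. Granulocyte and monocyte markers, whose 10 genes were all detected, summed to 60.3, 64.4 and 63.5 times the array's 75th percentile. Megakaryocyte markers, 6 of 6 detected, summed to 14.4, 29.9 and 18.3, with the platelet chemokine Pf4 the main term. Endothelial and stromal markers, 6 of 7 detected, summed to 2.23, 3.67 and 1.88. Of these, Kdr (5.88, 114 and 18.1 units) and Pdgfrb (18.8, 76.2 and 25.1 units) were highest in AtmsKO, and Cdh5 was not well above background on any array. The part of any of these cells in the results was not tested.

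Of the 17 probes, 16 were well above background on all arrays, the exception being 1 of the 3 Egr3 probes, in WT. By its brightest probe each gene but Egr3 was at or above the 75th percentile on all arrays, as were 10069 genes in total. Of the 10 genes, 9 had their lowest centred level on the array labelled Atmp38dKO, against 33.3% of all genes well above background and 37.7% of those 10069. In 8 the centred level stood in the order WT, AtmsKO, Atmp38dKO from high to low, against 16.2% and 17.4% of genes, and Fosl2 and Egr2 departed from it. This order was counted after the values were seen. Among the 8, Junb and Egr3 stepped down by only -0.16 each from AtmsKO to the last array. Before centring their signals rose there, from 19933 to 21833 and from 63.3 to 69.2 units.

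**Figure D1:**
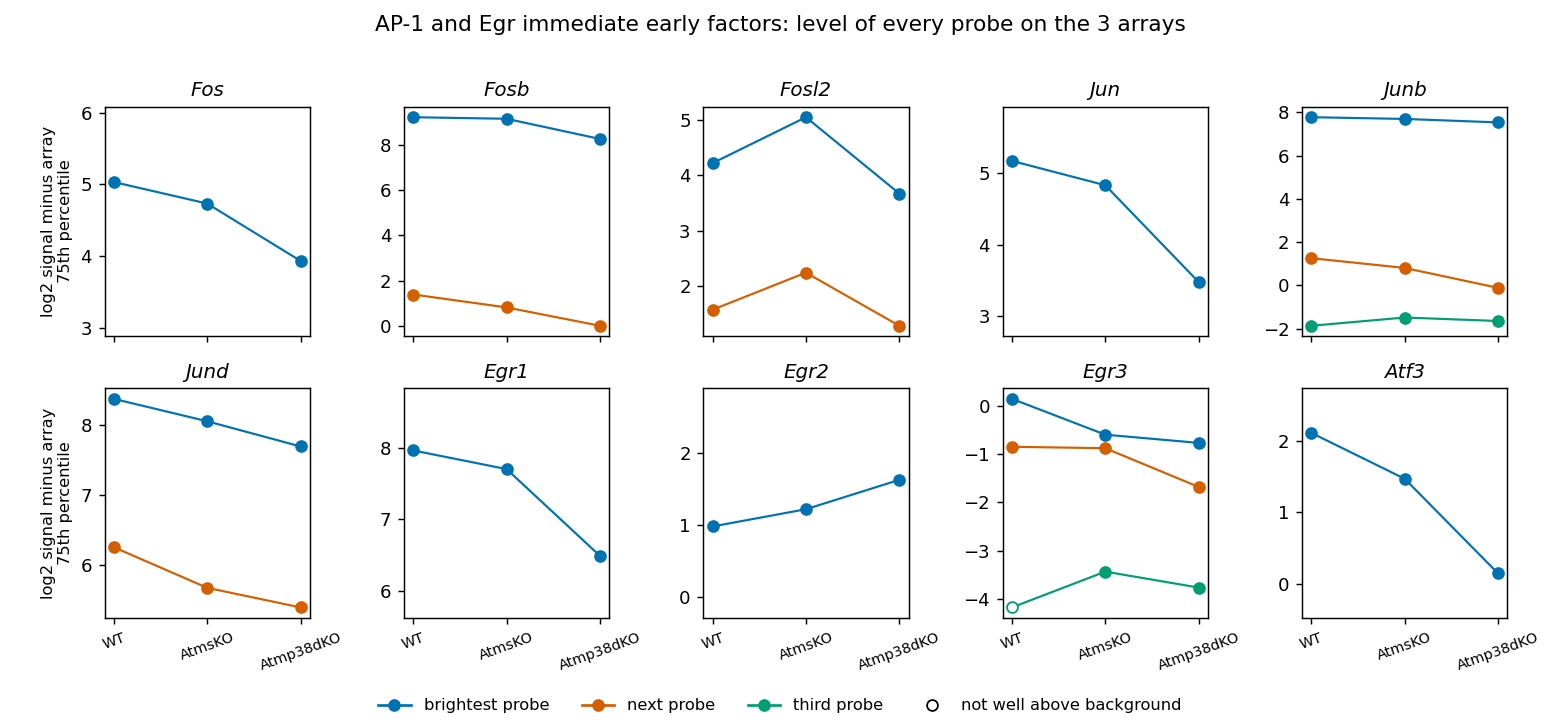
Level of every probe of the 10 genes for WT, AtmsKO and the array labelled Atmp38dKO, 1 array each, as log2 signal minus the array's 75th percentile, with its own vertical scale in each panel. Points are single array values with no error bar, the open circle was not well above background, and 12 of the 17 probes step down from WT to AtmsKO to Atmp38dKO.

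The Fos genes encode the partners that need a Jun protein to bind DNA. Fos, read by 1 probe (mm9 chr12:86818118-86818177), had a signal of 3323 (WT), 2559 (AtmsKO) and 1801 units (labelled Atmp38dKO). On the last it was 2.14-fold lower than in WT and 1.74-fold lower than in AtmsKO, log2 differences of -1.10 and -0.80, whereas AtmsKO and WT differed by -0.30. Only the first of these passed 2-fold, and all were larger than the spread between repeated spots. The Fos probe was itself a single spot, and the scanner's error estimates for it were wider, at 332, 256 and 180 units.

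Fosb, which encodes a close relative of Fos, was read by 2 probes on chromosome 7. The brighter (mm9 chr7:19888168-19888227) gave 60695, 54723 and 36225 units. This placed the last 1.94-fold below WT, just under the 2-fold call, with a log2 difference of -0.96. The dimmer probe (mm9 chr7:19890146-19890205) gave 267, 170 and 119 units and a larger difference of -1.38 between the same arrays, so the gene passed 2-fold by 1 probe and not by the other. Both probes read lowest on the array labelled Atmp38dKO, and the brighter one differed by only -0.07 between AtmsKO and WT.

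Fosl2, which encodes the Fos-related protein Fra-2, was the gene of the set that was highest in AtmsKO. Its brighter probe (mm9 chr5:32460076-32460135) gave 1894 (WT), 3185 (AtmsKO) and 1495 units (labelled Atmp38dKO). The dimmer (mm9 chr5:32455088-32455147) gave 301, 454 and 285. AtmsKO exceeded WT by 0.83 and 0.67 log2 units on the 2 probes. The array labelled Atmp38dKO lay below AtmsKO by 2.61-fold and 1.95-fold (log2 differences -1.38 and -0.96), and below WT by less than 2-fold on both (-0.56 and -0.29).

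Among the Jun genes, Jun itself, the founding member of the family, differed most. Its probe (mm9 chr4:94716928-94716987) gave 3652 (WT), 2740 (AtmsKO) and 1318 units (labelled Atmp38dKO). The last was 3.21-fold lower than WT and 2.55-fold lower than AtmsKO (-1.68 and -1.35), and AtmsKO lay -0.34 from WT. On the array labelled Atmp38dKO, Jun thus stood below the other arrays by more than 2-fold in each case.

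Junb, which often opposes Jun in cell growth, did not show a like difference by its brightest probe. That probe (mm9 chr8:87500843-87500902) gave 22205, 19933 and 21833 units, and after centring it differed by -0.24 between the array labelled Atmp38dKO and WT and by -0.16 from AtmsKO. A dimmer probe towards the start of the gene (mm9 chr8:87501881-87501940) gave 243, 169 and 109 units and differed by -1.37 and -0.92. The third (mm9 chr8:87496635-87496694), which lies outside the span of the others, gave 28, 34.4 and 37.7 units and differed by 0.21 from WT, which is within the spread between repeated spots at such signals. Against AtmsKO all 3 probes were lower on the array labelled Atmp38dKO (-0.16, -0.92 and -0.16), and the size of the difference depended on the probe.

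Jund, the Jun gene known for steady expression in resting cells, was read by 2 probes on chromosome 8. The brighter (mm9 chr8:73224436-73224495) gave 33637, 25485 and 24358 units, and the dimmer (mm9 chr8:73224302-73224361) gave 7738, 4903 and 4953. Both probes were highest in WT, with differences of -0.32 and -0.58 for AtmsKO and of -0.68 and -0.86 for the array labelled Atmp38dKO. None of these reached 2-fold.

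Very bright genes as a whole leaned down on the array labelled Atmp38dKO. The 354 genes with a mean level of at least 7 log2 units above the 75th percentile, a limit set after the data were plotted, had a median difference of -0.13 against WT and of -0.15 against AtmsKO. The brightest probes of Fosb, Junb, Jund and Egr1 lie among them. Of those 354, Egr1 and the heat shock cochaperone gene Dnajb1 were at least 2-fold lower against WT, and Egr1 was the single gene that was so against AtmsKO. The Junb differences of -0.24 and -0.16 were close to these medians.

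The Egr genes differed among themselves in direction. Egr1, a zinc finger factor linked to the quiescence and retention of stem cells, had 1 probe (mm9 chr18:35024395-35024454) with 25186 (WT), 20033 (AtmsKO) and 10604 units (labelled Atmp38dKO). The last was 2.76-fold below WT and 2.31-fold below AtmsKO (-1.46 and -1.21), while AtmsKO and WT lay -0.25 apart.

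Egr2, known for its part in myeloid and lymphoid differentiation, ran in the opposite direction. Its probe (mm9 chr10:67004758-67004817) gave 201 (WT), 224 (AtmsKO) and 366 units (labelled Atmp38dKO), the last 1.57-fold above WT (0.65) and 1.33-fold above AtmsKO (0.42). It was the gene of the set that was higher on the last array, and it did not reach 2-fold.

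Egr3, which shares targets with Egr2 in lymphocytes, was dim and its probes differed. The brightest (mm9 chr14:70482361-70482420) gave 112, 63.3 and 69.2 units, and the next (mm9 chr14:70478827-70478886) gave 56.4, 52.2 and 36.8. Against WT the first was lower on both other arrays, by -0.75 and -0.91, whereas the second was near 0 in AtmsKO (-0.03) and stood at -0.83 on the array labelled Atmp38dKO. The third probe (mm9 chr14:70481979-70482038) was not well above background in WT and gave 8.94 and 8.69 units on the other arrays. At these signals the spread between repeated spots was itself about 0.25 log2 units.

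Atf3, a stress-induced repressor, showed the largest difference of the set in the main setting. With another background correction (normexp) it stood at -1.53 from WT on the array labelled Atmp38dKO, and Jun at -1.62. Its probe (mm9 chr1:192994547-192994606) gave 440 (WT), 267 (AtmsKO) and 131 units (labelled Atmp38dKO). The last was 3.89-fold below WT and 2.49-fold below AtmsKO (-1.96 and -1.32), and AtmsKO was 1.56-fold below WT (-0.64). The signal thus stepped down at each array in turn.

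**Figure D2:**
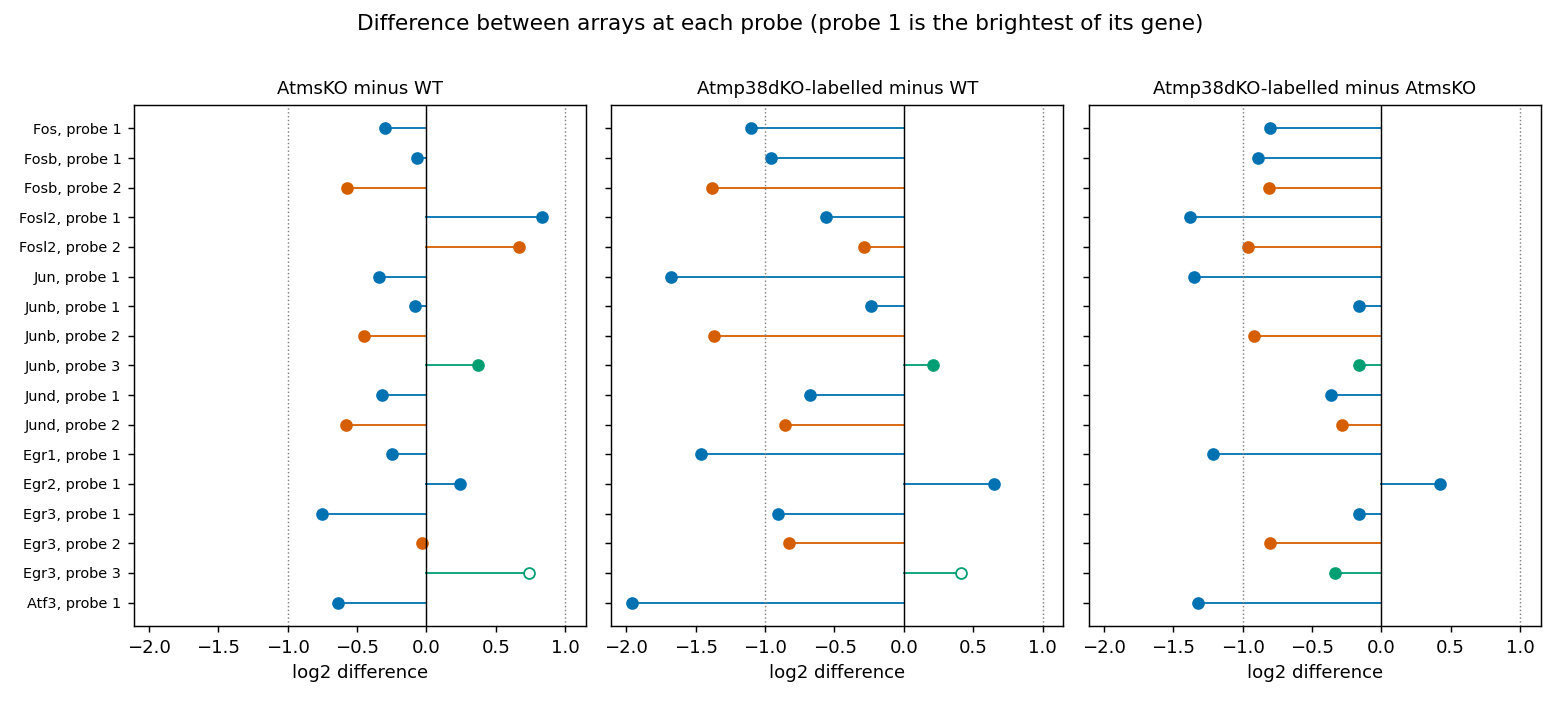
Log2 difference between 2 arrays at each of the 17 probes, in 3 panels for the 3 pairs of arrays, with dotted lines at 2-fold and open circles where 1 array was not well above background. Against WT, the array labelled Atmp38dKO lies lower at 14 of the 16 probes measured on both, and 6 of these pass 2-fold.

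Counted by brightest probe, 9 of the 10 genes lay below WT on the array labelled Atmp38dKO, as did 47.8% of all genes considered. Fos, Jun, Egr1 and Atf3, 4 of the 10, were lower by 2-fold or more, as were 4.46% of all genes and 0.626% of those at or above the 75th percentile on all arrays. With the mean of a gene's probes in place of the brightest the count was 5, Fosb (-1.17) being the addition. None of the 10 was 2-fold higher, as 3.98% of all genes were. By probe, 14 of the 16 measured on both arrays were lower and 6 by 2-fold, beside 49.6% and 3.91% of all probes. The median of the 10 genes was -0.94 and that of all genes was 0.02. Among the 10069 brighter genes, 5 were as low as Atf3 or lower in that comparison, itself included, 7 as low as Jun, 10 as low as Egr1 and 43 as low as Fos. At 8-fold 0 of the 10 genes were lower, beside 0.310% of all genes. These values chose the set, so the counts describe it and show nothing more about it.

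Set against AtmsKO, the array labelled Atmp38dKO was lower for 9 of the 10 genes, beside 50.5% of all genes. Of these, Fosl2, Jun, Egr1 and Atf3, 4 in all, were lower by 2-fold or more, beside 3.64% of all genes and 0.417% of the brighter genes. With normexp background correction Atf3 stood at -0.96 in this comparison and the count was 3. The median of the 10 was -0.84. The array labelled Atmp38dKO enters both comparisons, so their values are not independent of each other. By probe, 16 of the 17 were lower and 4 passed 2-fold, beside 51.3% and 3.28% of probes measured on both arrays.

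Between AtmsKO and WT, 0 of the 10 genes passed 2-fold in either direction, beside 4.04% of all genes lower and 3.86% higher. The median of the 10 was -0.28 with 8 lower, beside 49.0% of all genes, and the extremes were Egr3 at -0.75 and Fosl2 at 0.83. The Egr3 value rests on 1 probe, and the mean of its probes gave -0.01. By probe, 12 of the 16 measured on both arrays were lower, beside 47.6% of all probes.

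**Figure D3:**
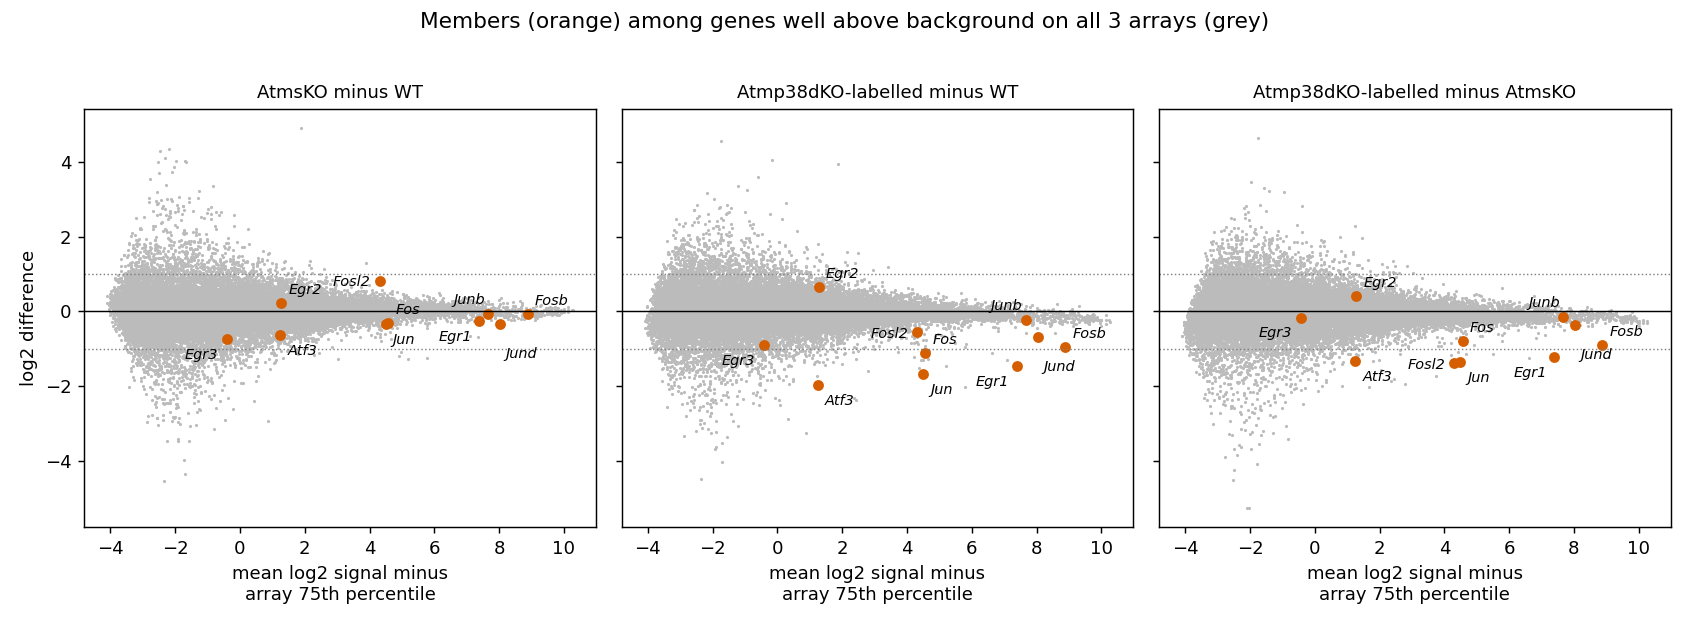
Each grey point is a gene well above background on all 3 arrays, placed by its mean log2 signal minus the array's 75th percentile (horizontal) and its log2 difference between 2 arrays (vertical), with the 10 genes in orange and dotted lines at 2-fold. In the middle panel Atf3, Jun and Egr1 lie at the lower edge of the cloud, while Egr2 lies above 0.

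The genes whose pattern over the 3 arrays came nearest to that of Atf3 were sought among the 10069 brighter genes, by the Euclidean distance between their 2 log2 differences from WT. Only 5 lay within 0.5. The nearest was Parp8, a member of the PARP family (420, 232 and 146 units, distance 0.26). Next came Hey1 and Hes1, which encode repressors that act downstream of Notch, at distances of 0.40 and 0.41. Hey1 gave 997, 681 and 231 units and Hes1 gave 1077, 697 and 243. Jun followed at 0.41, and the probe A_55_P2564306, which carries no gene name here, at 0.47. A distance over 3 arrays rests on 2 differences only.

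The other immediate early genes of the array were set beside these factors as a list of 40, which was drawn up with earlier results of these arrays known. Against WT, 34 of the 40 were lower on the array labelled Atmp38dKO, 8 of them by 2-fold or more, beside 47.8% and 4.46% of all genes. Their median was -0.49 and that of all genes 0.02. The largest were Hes1 (-2.36), Ccn1, a matricellular protein gene (62.6, 37.3 and 27.9 units, -1.38), and Klf4, a zinc finger factor of quiescence (3529, 2197 and 1670 units, -1.29). The other 5, named after their values were seen, were the MAP kinase phosphatase gene Dusp2 (-1.29), the nuclear receptor gene Nr4a1 (-1.28), Ier3 (-1.26), the antiproliferative gene Btg2 (-1.17) and Zfp36, whose product destabilizes AU-rich mRNAs (-1.12). Not every gene of the class ran this way: Nr4a3, Klf2, Nfkbia and Npas4 were at 0.30, 0.17, 0.21 and 0.36.

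Against AtmsKO, 36 of those 40 were lower on the array labelled Atmp38dKO and 6 passed 2-fold, with a median of -0.44, beside 50.5% and 3.64% of all genes. Hes1 (-1.81), Errfi1 (-1.44) and Zfp36 (12847 units on the AtmsKO array and 6698 on the other, -1.23) were the largest. Between AtmsKO and WT the list was split more evenly, with 25 lower (49.0% of all genes were), 15 higher and a median of -0.08. The 1 gene past 2-fold was Errfi1, an inhibitor of EGF receptor signalling, which was 1.81 higher on a dim probe (6.64 and 22 units) whose companion probe ran the other way.

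The leucine zipper partners outside the set also leaned down, but by less. Of 22 considered, 15 were lower on the array labelled Atmp38dKO when set against WT, beside 47.8% of all genes, and their median was -0.24. By 2-fold 0 were lower, beside 4.46% of all genes. The median of all genes was 0.02 and that of the set -0.94. Fosl1, which encodes the fourth Fos protein, was dim at 22.4, 25.7 and 15.7 units and lay 2.01-fold below AtmsKO on that array (-1.01). Batf gave 121, 98.1 and 103 units, and Jdp2, a repressor that pairs with Jun, gave 161, 85.4 and 159. Atf4, the effector of the integrated stress response, gave 12372, 13343 and 9970 units by its brighter probe and 1998, 2033 and 1284 by the other, differences of -0.53 and -0.85 from WT.

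A few of these partners passed 2-fold between other arrays, all at low signal. Batf3 was not well above background in WT, gave 24.7 units in AtmsKO, at least 4.89-fold higher, and 10.7 units on the array labelled Atmp38dKO. Batf2 was 2.06-fold lower in AtmsKO than in WT (13.9 and 30.3 units). Maf, a large leucine zipper factor, was 2.51-fold lower in AtmsKO than in WT by its brightest probe (12.3 and 32.6 units) and 2.37-fold higher on the array labelled Atmp38dKO than in AtmsKO, but a second Maf probe was higher in AtmsKO than in WT.

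Of the relatives and corepressors of the Egr factors, Egr4 gave 41, 36.1 and 45.1 units. Nab2, whose product binds and restrains Egr1, gave 166, 204 and 191 units by 1 probe and 187, 65.2 and 70.3 by another. The second placed both other arrays below WT by -1.44 and -1.63, and the first placed them at 0.38 and -0.01, so the direction of Nab2 depended on the probe. Nab1 was not analysed here.

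The inputs to these genes, a list of 28 with SRF, its partners and the MAP kinase cascades, held 0 genes past 2-fold against WT on either array. Of all genes considered, 4.04% were lower and 3.86% higher by 2-fold in AtmsKO, and 4.46% and 3.98% on the array labelled Atmp38dKO. On that array the median of the list was 0.05, with 12 lower and 16 higher, beside 47.8% of all genes lower. Srf gave 876, 944 and 1294 units and stood 0.35 above WT on that array. Against AtmsKO, Mapk9, which encodes a Jun N-terminal kinase, was 2.06-fold higher by 1 probe (119 and 301 units) and lay at -0.15 by the other. Mapk12, which encodes p38γ, was 2.43-fold higher by its brightest probe (11.1 and 32.9 units) and at -0.66 by the next.

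Genes known as AP-1 or Egr targets in other tissues were mostly dim or undetected. Of 16 considered on the array labelled Atmp38dKO and WT, 9 were lower and 2 by 2-fold, beside 47.8% and 4.46% of all genes. Their median was -0.01. Brighter ones, named after their values were seen, went both ways and stayed within 2-fold. Vim (1389 units in WT) and Cd44 stood at -0.17 and -0.18, and Cd69, Timp1 and Ccnd1 at 0.08, 0.12 and 0.56. Mmp3, a matrix protease gene, gave 52.5 units in WT, was not well above background in AtmsKO (at least 8.13-fold lower) and gave 7.81 units on the array labelled Atmp38dKO, a 7.81-fold difference from WT. F3, the tissue factor gene, gave 13.7, 9.57 and 6.64 units and was 2.4-fold lower than WT on the last array. Ptgs2, the cyclooxygenase-2 gene, was 2.06-fold lower there than on the AtmsKO array (57.4 and 34 units).

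**Figure D4:**
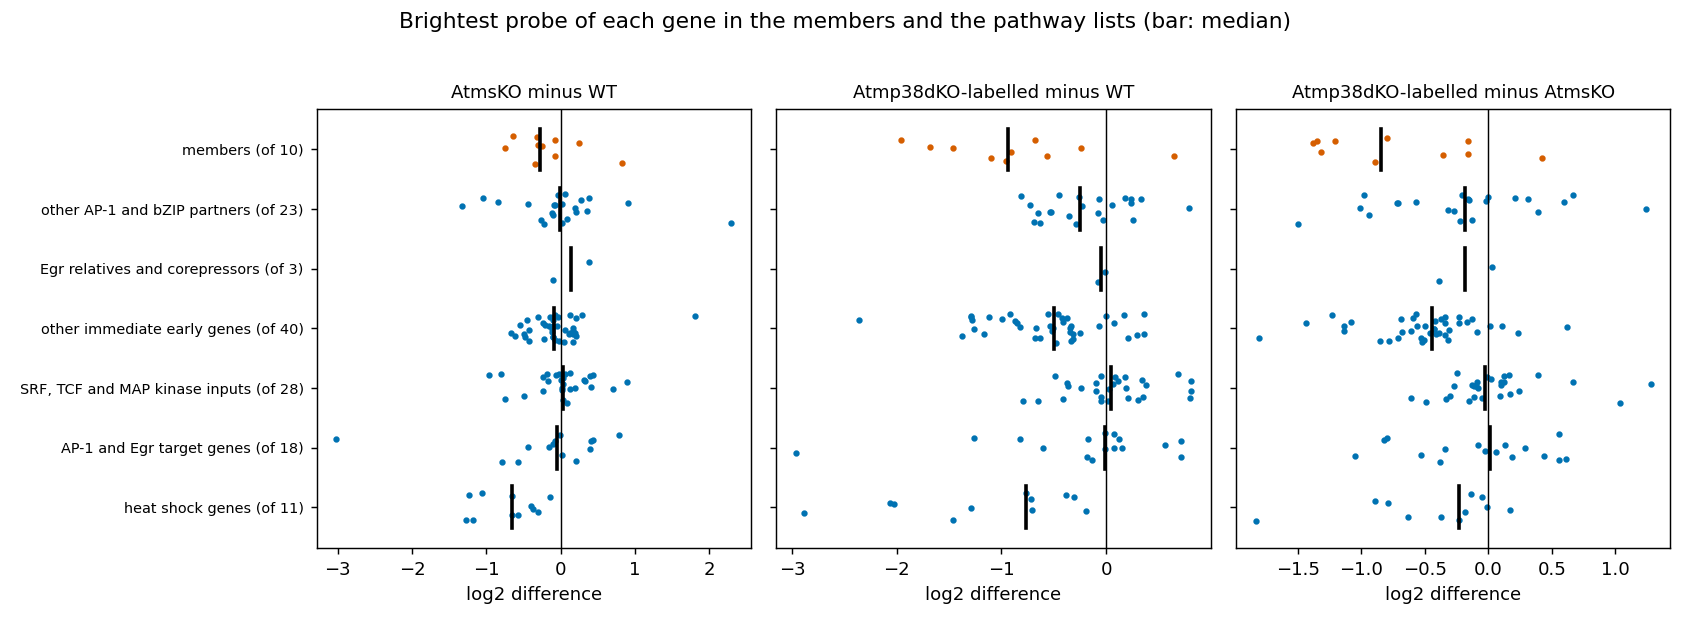
Log2 difference between 2 arrays of the brightest probe of each gene, with the 10 genes in orange, the genes of 6 related lists in blue and a bar at each median, in 3 panels for the 3 pairs of arrays. In the middle panel the medians of the 10 genes (-0.94), the heat shock genes (-0.76) and the other immediate early genes (-0.49) lie below 0, and those of the SRF and MAP kinase inputs (0.05) and of the target genes (-0.01) lie near 0.

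Heat shock genes, which are also induced within minutes of stress, were lower than WT on the same arrays as the set but with a different spacing. All 11 were lower than WT in AtmsKO, 4 by 2-fold, with a median of -0.66, beside 49.0% and 4.04% of all genes. All 11 were also lower than WT on the array labelled Atmp38dKO, 5 by 2-fold, with a median of -0.76, beside 47.8% and 4.46%. Between the last array and AtmsKO their median was -0.23. There 10 of 11 were lower and 1 by 2-fold, beside 50.5% and 3.64% of all genes. The median of the set was -0.84 there and -0.28 between AtmsKO and WT. Hspa1a, the inducible HSP70 gene, gave 11889 (WT), 4782 (AtmsKO) and 3383 units (labelled Atmp38dKO). Its neighbour Hspa1b, which is nearly identical in sequence so that the 2 cannot be told apart with certainty, gave 6430, 2691 and 1784. Hsph1 gave 7005, 2738 and 2958, and Hspb1, a small heat shock protein gene, gave 320, 146 and 50.2. Unlike the set, the heat shock genes were already more than 2-fold lower on the AtmsKO array for Hspa1a, Hspa1b, Hspb1 and Hsph1. Their part in the values of the AP-1 and Egr genes was not tested.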

How the data were processed

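LT-HSC RNA was labelled with Cy3 and hybridized to 1-colour Agilent mouse arrays, 1 for each of 3 groups. The deposited scanner files hold processed intensity values, which a contractor of the authors made in Agilent Feature Extraction 11.5.1.1 by subtracting background and detrending within the array, with no scaling between arrays, and probe positions on mm9. The authors also deposited log2 values; these matched log2 of the mean processed intensity minus the array's 75th percentile, controls included, within 0.02 for 99.6% to 99.8% of probes.

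Spots flagged as outliers (57 for WT, 75 for AtmsKO and 83 for Atmp38dKO) and controls were dropped, spots of a probe were averaged, and the 75th percentile over probes other than controls was subtracted from log2 of the signal. A probe needed over 50% of its spots well above background to count as such, and other values were raised to the lowest signal well above background. The brightest probe by the mean of the 3 arrays stood for a gene. It counted as 2-fold different if it was also well above background on the brighter array, and genes well above background on neither array were not considered. Probes took names through RefSeq accessions for 32994 of 56605 probes and otherwise the array's own. All 10 genes of the set were named with every probe, as were Atm and Mapk14. Other genes were named if at least 2-fold different, at most 3 per list, comparison and direction, with a few partners fixed in advance, except where the text says otherwise. Members and lists were chosen with earlier results of these data known. With 1 array per group no test was run, and precision is limited by that number.

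Alternatives were normexp background correction (limma 3.58.1, offset 50), centring on the median, quantile normalization, the deposited log2 values, no floor, the mean of a gene's probes, a stricter background filter and an 8-fold call. The scripts (Python 3.11.15, pandas 2.3.3, R 4.3.3) were tested on simulated data.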

Additional observations from a re-analysis of the deposited data

How the results depend on the processing

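No difference of the 10 genes changed sign in any comparison under the 7 alternatives to the scaling, background and probe choice, but sizes moved. Egr3 went from -0.75 to -0.44 (normexp) and -0.01 (mean of probes) in AtmsKO against WT, and from -0.91 to -0.57 and -0.44 in Atmp38dKO against WT. Junb ranged from -0.47 to -0.13 in Atmp38dKO against WT and from -0.41 to -0.04 against AtmsKO. With normexp, Atf3 went from -1.96 to -1.53 in Atmp38dKO against WT, and Jun, at -1.62, was then the lowest of the 10. The count of genes lower by 2-fold or more was 5 against WT with the mean of probes and 3 against AtmsKO with normexp, in place of 4. The median of the 10 genes on the array labelled Atmp38dKO moved from -0.94 to -0.77 with normexp and to -0.86 with quantile normalization against WT, and from -0.84 to -0.76 and -0.74 against AtmsKO. With an 8-fold call the count of lower genes was 0 against either array.

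Counts over the pathway lists together (112 genes without the heat shock genes) moved more. In AtmsKO against WT the main counts were 2 higher and 3 lower. Normexp gave 0 and 0, the deposited log2 values and the setting without a floor both gave 5 lower, and the mean of probes and the filter on both arrays each gave 1 higher. In Atmp38dKO against WT (0 higher, 10 lower) normexp gave 5 lower and a median of -0.15 in place of -0.24, and the deposited values and the setting without a floor both gave 1 higher. In Atmp38dKO against AtmsKO (3 higher, 9 lower) normexp gave 0 higher and 3 lower, the deposited values and no floor both gave 6 higher, and the mean of probes gave 0 higher. The cause was not tested.

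No paired analysis was possible because 1 array stood for each group, and no array was left out for the same reason. The lowest readings of the set were those of the third Egr3 probe, near the detection limit.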
